A study of Esox lucius with 13 samples.

Results

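Elastase-1 and Trypsin-1 are names of digestive serine proteases, and the gene set described here holds the rows at hand that the study annotated with either name. A name is an annotation only, and whether each row encodes a digestive enzyme was not tested. The names come from 2 annotation tables of the study, one of Trinity transcripts (assembled from the RNA reads) and one of MAKER2 gene models (predicted from the genome). In the first 1999 rows of each table, which are those at hand, 7 rows carried a name, 5 of Elastase-1 and 2 of Trypsin-1. Of these 7 rows, 4 were found among the 38696 transcripts with deposited values, namely 3 Trinity transcripts of Elastase-1 and 1 model of Trypsin-1. The Trinity rows matched exactly, whereas the Trypsin-1 model was paired by a rule added after the data were seen. The other 3 rows, both MAKER2 models of Elastase-1 and the shorter of the Trypsin-1 models, could not be paired with a transcript. That shorter Trypsin-1 model, of 825 bases, had fewer than 100 fragments over all libraries together. Trypsin-1 below means the longer model only. The genes were selected on their measured fragments and FPKM across the tissues of these same libraries, so that all levels are given as a description and no test was made on them.

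RNA was sequenced from 6 visceral tissues of interest, namely gut, stomach, liver, spleen, head kidney and kidney, and from gill, heart, nose, eye, brain, muscle and testis, all of 1 juvenile, wild-type, male northern pike (*Esox lucius*), a wild-caught predatory fish related to salmon and trout. The methods call the gut sample hind gut, and the stomach column is headed pyloric caecum in the table of gene models. Each tissue gave 1 library of 17240414 to 22300517 mapped fragments, with a median of 19038265, and there are no replicates. Values are FPKM, the fragment number scaled to transcript length and to the library total, which makes levels comparable per length. The 95% intervals in parentheses cover counting error only and not the variation between fish or dissections. In whole tissue, fewer cells of a type and less RNA per cell cannot be told apart.

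Trypsin is made by acinar cells of the exocrine pancreas as inactive trypsinogen and is activated in the gut lumen, where it cuts proteins and activates other digestive zymogens. Elastases of the same fold cut after small residues. In many teleosts the exocrine pancreas is not a compact organ but is spread as acinar tissue along blood vessels, in the mesentery and around or within the liver and spleen. The head kidney of teleosts is a blood-forming and endocrine organ, and the trunk kidney carries both nephrons and blood-forming tissue. No nucleotide or protein sequence of these transcripts was at hand, and none is shown.

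Trypsin-1 was highest in spleen and liver, was lower in head kidney, and was lower still in gut. In gut it ranked as number 1543 of 27172 transcripts with fragments. Its transcript (GATF01003141, 896 bases) had 40486 fragments in all, from 11 of the 13 libraries. The level was 1154 FPKM in spleen (1137 to 1171), 831 in liver (819 to 844) and 229 in head kidney (222 to 237). These 3 tissues stood apart from the rest. Stomach had 32.7 FPKM (30.1 to 35.5), gut 26.1 (23.8 to 28.7) and kidney 6.38 (5.26 to 7.67). Heart had 3.52 FPKM (2.68 to 4.53), nose 1.39 (0.870 to 2.10) and testis 1.22 (0.756 to 1.87). At the low end the counts no longer separated every tissue, and the ratio of nose to testis was 1.14 (0.596 to 2.17). Brain had 5 fragments (0.324 FPKM) and muscle 1 fragment (0.065 FPKM). Eye and gill had no fragment, which allows a level of up to 0.166 FPKM in eye and 0.176 in gill at a limit of 3 fragments.

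**Figure D1:**
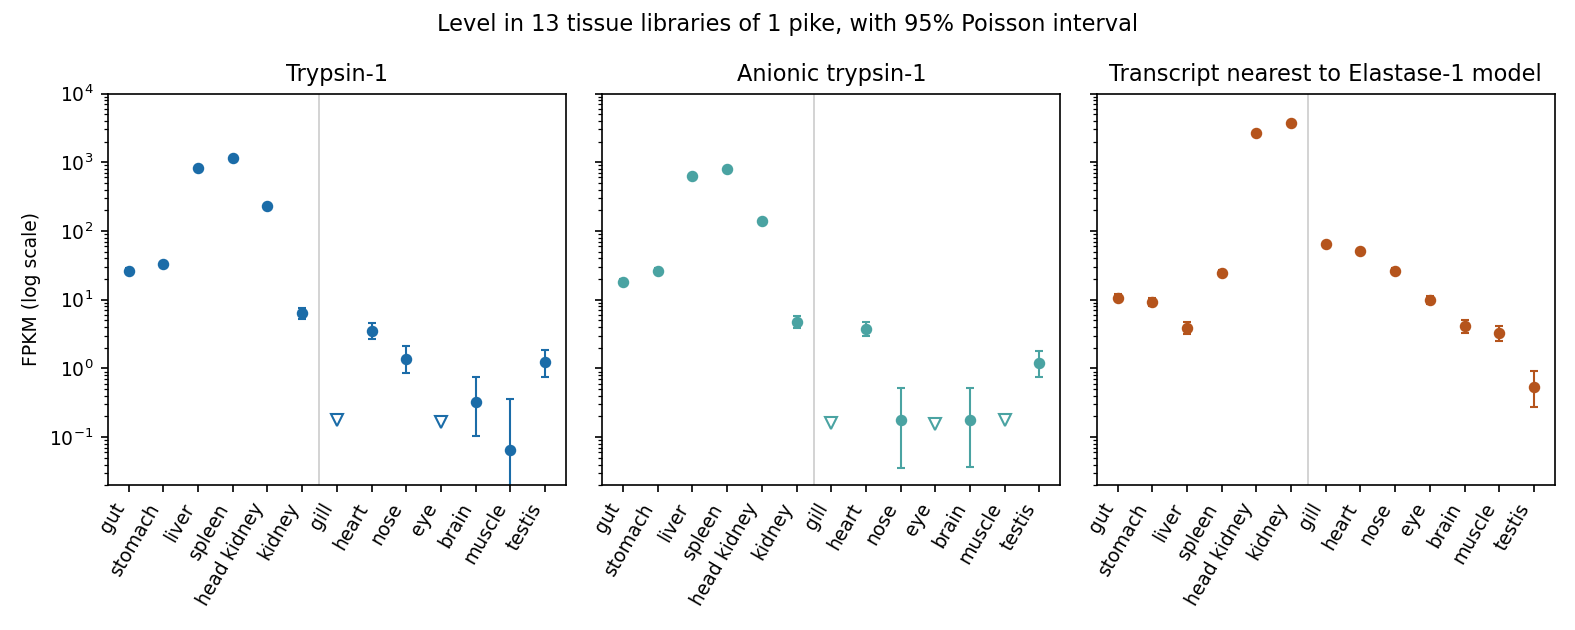
FPKM on a log axis in each of the 13 tissue libraries for Trypsin-1, Anionic trypsin-1 and the unnamed transcript nearest in profile to the shorter Elastase-1 gene model. Points are single libraries, bars are 95% Poisson intervals, and open triangles stand at 3 fragments where a library had none. Both trypsins peak in spleen and liver (1154 and 831 FPKM for Trypsin-1), the third transcript in kidney and head kidney (3741 and 2631 FPKM).

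Against gut, Trypsin-1 was 44.1 times as high in spleen (40.2 to 48.6) and 31.8 times as high in liver (28.9 to 35.0). With median-of-ratios size factors, which scale a library by the median ratio of its transcripts to a reference, these folds were 21.7 and 97.6. Their sizes and their order thus depend on the scaling. In FPKM it was 8.77 times as high in head kidney (7.94 to 9.69) and 0.244 times as high in kidney (0.197 to 0.301). Both kidneys thus lay on opposite sides of gut, and head kidney exceeded kidney by 35.9 times (29.8 to 43.7). The ratio of stomach to gut was 1.25 (1.10 to 1.42) in FPKM and 0.843 when the values were rescaled to TPM, so that the order of stomach and gut depends on the scaling.

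The order of the highest pair depends on the scaling as well. Spleen exceeded liver by 1.39 times (1.36 to 1.42) in FPKM and by 1.66 times in TPM. With the size factors the ratio was 0.222, and with library totals that left out the 100 most abundant transcripts (trimmed totals) it was 0.486, which places liver above spleen. FPKM divides by the library total, so that very abundant transcripts lower the values of all others. The median transcript with at least 10 fragments in liver or gut had a log2 ratio of liver to gut of -2.19. Leaving out the 100 most abundant transcripts moved the ratio of liver to gut by 0.926 in log2. What sets that median was not tested. The places of spleen and liver above head kidney and of head kidney above gut were the same under every scaling tried.

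Among the 4 members found, 3 had at least 10 fragments in a library and could be set against the share of all transcripts past a given fold. In spleen, 1 of these 3 (Trypsin-1) was at least 10 times gut, as were 10.3% of the transcripts tested. In liver, 1 of the 3 (Trypsin-1 again) was at least 10 times gut, against 2.46% of all. None of the 3 reached that fold over gut in head kidney (6.07% of all), kidney (8.19%) or stomach (1.48%). In the other direction, 2 of the 3, both of Elastase-1, were at least 10 times as high in gut as in liver, as were 27.1% of all transcripts. None of the 3 was 10 times as high in gut as in head kidney (8.03% of all), kidney (5.45%), spleen (6.35%) or stomach (10.2%). The ratio of spleen to gut was larger than that of Trypsin-1 in 299 of 22247 transcripts, and the ratio of liver to gut in 262 of 18936. For head kidney to gut it was larger in 1462 of 20822, for stomach to gut in 2589 of 19179 and for kidney to gut in 19055 of 21320. Since the members were picked with these levels known, nothing is read from these counts.

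Anionic trypsin-1, a second trypsin of the kind that carries a negative charge, was the named transcript whose profile was most like that of Trypsin-1. Its transcript (GATF01008268, 967 bases) had a Pearson r of 0.991 with Trypsin-1 on log2(FPKM + 0.1) over the 13 tissues, all points sharing the same libraries. It had 801 FPKM in spleen (788 to 815), 621 in liver (610.4 to 631) and 142 in head kidney (136 to 147). Stomach followed with 26.6 FPKM (24.3 to 29.0), gut with 18.2 (16.3 to 20.3) and kidney with 4.76 (3.83 to 5.85). In FPKM the 6 tissues fell in the same order as for Trypsin-1, which follows largely from the choice by likeness. With size factors or trimmed totals liver was above spleen here too. The FPKM of Anionic trypsin-1 was 44.0 times that of gut in spleen (39.5 to 49.2) and 34.1 times in liver (30.6 to 38.2). How the authors assigned fragments that fit several transcripts is not stated in the methods or labels, so that the split between similar trypsin genes is uncertain.

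Within a library, the level of Trypsin-1 per length was 1.23 times that of Anionic trypsin-1 in stomach (1.09 to 1.39), 1.34 in liver (1.31 to 1.37) and 1.44 in spleen (1.41 to 1.47). In head kidney it was 1.62 times as high (1.54 to 1.70), a ratio whose interval lies above those of stomach, liver and spleen. In heart the ratio was 0.938 (0.653 to 1.35), with an interval below those of spleen and head kidney. Gut, at 1.44 (1.24 to 1.66), and kidney, at 1.34 (1.01 to 1.79), could not be told from them by counting error. Nose lay on the other side, with 22 fragments of Trypsin-1 against 3 of Anionic trypsin-1, a ratio of 7.91 (2.38 to 41.3).

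A group of 14 transcripts, of 31505 screened, followed Trypsin-1 with r of at least 0.95. In FPKM 13 of these were highest in spleen and 1 in liver, whereas with size factors or trimmed totals all 14 were highest in liver. Anionic trypsin-1 was the only one of the 14 with a name at hand. Another of the 14, of 851 bases, was the nearest profile to an unpaired MAKER2 model named Trypsin, of 834 bases. The distance was 0.0216 and the second nearest lay at 0.0431, so that its name is not settled. It had 517 FPKM in spleen and 289 in liver, a pattern fixed by that choice. The nearest without a name were GATF01008394, with r of 0.995, and GATF01008393, with r of 0.988. Together with Trypsin-1, the 15 transcripts made up 0.490% of the fragments in spleen, 0.365% in liver, 0.0887% in head kidney, 0.0169% in stomach, 0.0131% in gut and 0.00332% in kidney. The 14 were chosen for likeness, so that this contrast between tissues was largely fixed by the choice. All 15 had fragments in each of these 6 libraries, whereas gill had fragments of 4 and eye and muscle of 5 each.

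Ratios between tissues varied among the 15, although the profiles were chosen for likeness. The ratio of spleen to liver ran from 0.955 to 2.10 with a median of 1.39 in FPKM, from 0.153 to 0.336 with size factors and from 0.334 to 0.736 with trimmed totals. The ratio of spleen to head kidney ran from 2.78 to 9.18 with a median of 5.64. Head kidney exceeded gut by 3.02 to 14.4 times, with a median of 7.42. Gut exceeded kidney by 1.91 to 5.63 times. Stomach was above gut in 12 of the 15 in FPKM and below it in 3, and that order depends on the scaling, as for Trypsin-1 itself. The next named transcripts were far less like Trypsin-1, with an r of 0.715 for Hypoxanthine-guanine phosphoribosyltransferase, an enzyme of purine salvage, and of 0.713 for Protein AMBP, a plasma protein precursor made by the liver. Phosphatidylcholine-sterol acyltransferase, which esterifies cholesterol in plasma, followed at 0.7004, and Hemopexin, which binds free heme in plasma, at 0.689.

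**Figure D2:**
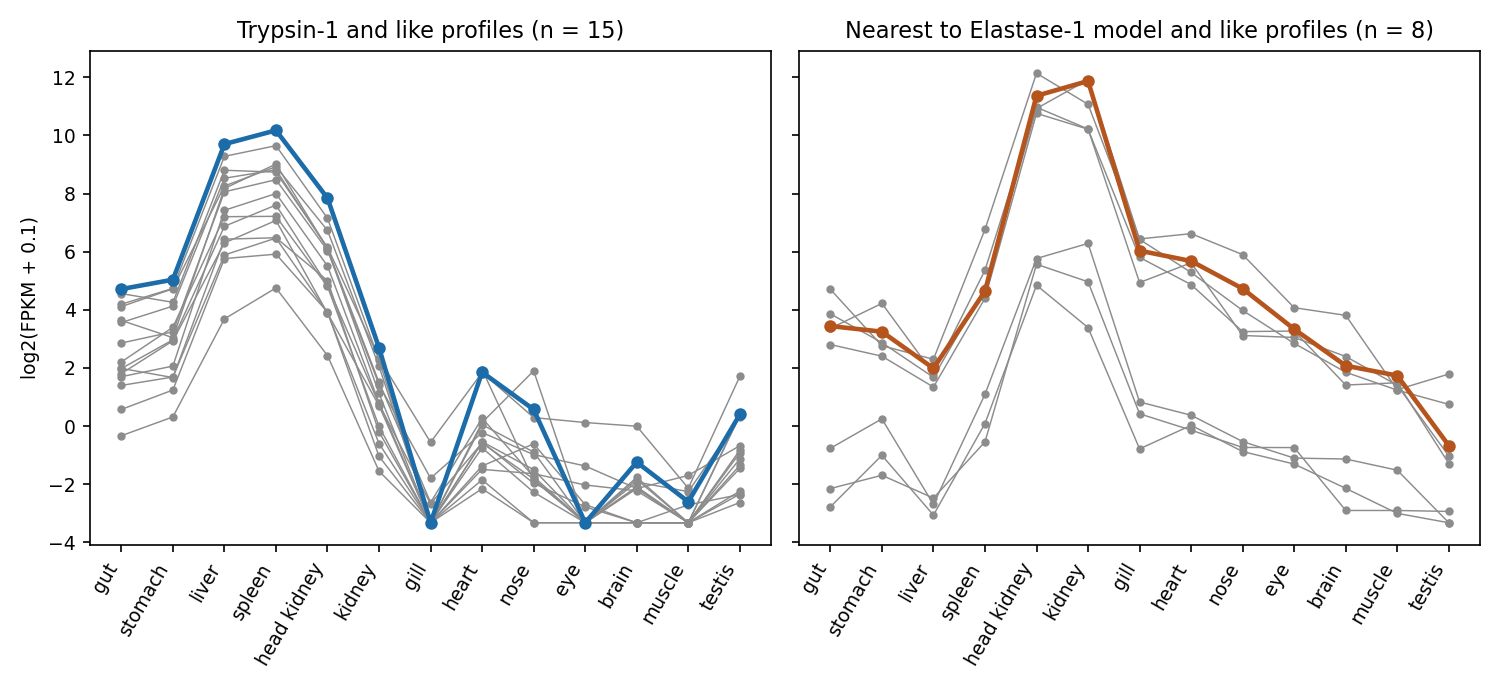
log2(FPKM + 0.1) in the 13 tissue libraries for Trypsin-1 with its 14 most alike transcripts (left) and for the transcript nearest to the shorter Elastase-1 gene model with its 7 (right). Each line is 1 transcript, and the coloured line is the one named in the title. The left group peaks in spleen and liver (0.490% and 0.365% of the fragments) and the right group in head kidney and kidney (0.922% and 0.878%). Each group was chosen for likeness, so that its peaks follow from that choice.

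The Trinity transcripts named Elastase-1 showed another pattern at far lower levels. The longest (GATF01001800, 441 bases) had 164 fragments in all and was detected in 7 libraries. It had 5.41 FPKM in gut (3.95 to 7.24), 4.64 in gill (3.30 to 6.34) and 3.38 in head kidney (2.25 to 4.89). In FPKM gut did not differ beyond counting error from gill, with a ratio of 1.17 (0.743 to 1.84), or from head kidney, with a ratio of 1.60 (0.976 to 2.66). With size factors both ratios lay above 1, at 1.73 (1.10 to 2.72) and 2.61 (1.595 to 4.35). Gut against head kidney was also above 1 in TPM (1.66, 1.02 to 2.77) and with trimmed totals (2.03, 1.24 to 3.37). Kidney had 2.53 FPKM (1.58 to 3.82), stomach 1.95 (1.14 to 3.12), spleen 1.37 (0.686 to 2.46) and liver 0.203 (0.0246 to 0.735), the last from 2 fragments. Brain, eye, heart, muscle, nose and testis had no fragment, which allows up to 0.338 FPKM in eye and 0.395 in brain at a limit of 3 fragments. Gut was 2.14 times kidney (1.26 to 3.75) and 2.77 times stomach (1.56 to 5.17). Gut against kidney was 3.55 with size factors, and gut against stomach 1.51 (0.845 to 2.81) with size factors and 1.44 (0.807 to 2.68) with trimmed totals, intervals that include 1.

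The transcript of 381 bases (GATF01001801) had 149 fragments and was highest in stomach and gut. It had 8.10 FPKM in stomach (6.19 to 10.4), 7.10 in gut (5.28 to 9.33) and 2.06 in gill (1.16 to 3.40). Stomach and gut did not differ beyond counting error, with a ratio of 1.14 (0.774 to 1.69), and their order depends on the scaling (0.769 in TPM, 2.10 with size factors). Spleen had 1.01 FPKM, head kidney 0.979 and kidney 0.930, each from 7 fragments, and nose 0.148 from 1 fragment. Gut exceeded head kidney by 7.25 times (3.28 to 18.9) and kidney by 7.63 times (3.45 to 19.9), or by 11.8 and 12.7 times with size factors. Liver, where Trypsin-1 was near its peak, had no fragment of this transcript, which allows up to 0.353 FPKM.

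The shortest Elastase-1 transcript (GATF01001493, 239 bases) had 5 fragments in all, 4 in head kidney (0.891 FPKM, 0.243 to 2.28) and 1 in kidney (0.212 FPKM). At this depth no order of tissues can be read from it. The profiles of the 441-base and 381-base transcripts had an r of 0.905 with each other, and of 0.430 and 0.339 with Trypsin-1. No other transcript reached an r of 0.95 with either. Besides each other, the most alike named transcript was Cornifelin (r 0.755), a small cysteine-rich protein, for the 441-base one. For the 381-base one it was Thymosin beta-11 (r 0.716), an actin-binding peptide.

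**Figure D3:**
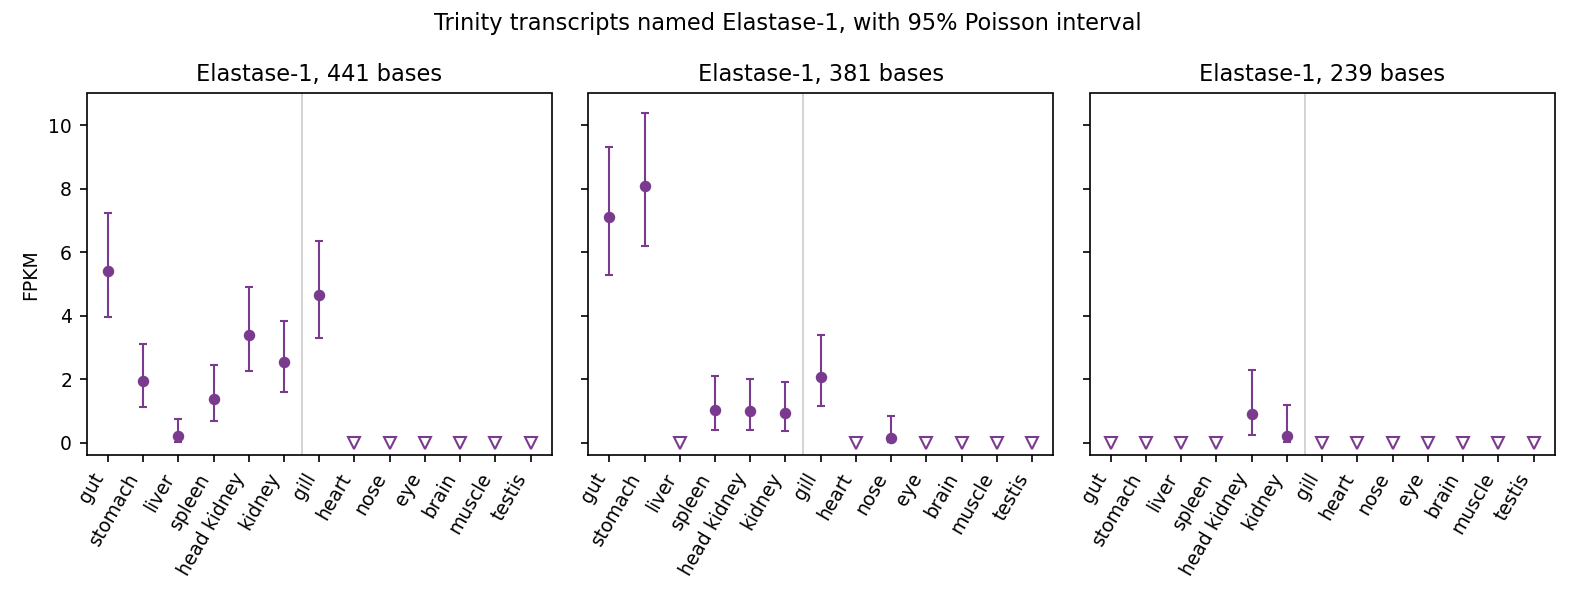
FPKM in the 13 tissue libraries for the 3 Trinity transcripts named Elastase-1, with 95% Poisson intervals and open triangles where a library had no fragment. The 441-base transcript is highest in gut (5.41 FPKM) and gill (4.64), the 381-base transcript in stomach (8.10) and gut (7.10), and the 239-base transcript has 5 fragments in all.

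Neither MAKER2 model of Elastase-1 could be paired by its fragment numbers. For the model of 427 bases, the nearest profile among all transcripts with at least 100 fragments was that of GATF01027953, an unnamed transcript of 1182 bases. The distance was 0.0101 of the fragments and the second nearest lay at 0.0281. The lengths differ, and for 12 of 113 models that were paired by their fragment numbers a second transcript lay as near as this. Whether this transcript comes from the Elastase-1 gene is therefore not settled, and it is called here the transcript nearest to the Elastase-1 model. Its pattern was fixed by that choice. At so small a distance, the model itself, which carries the name, also had most of its fragments in kidney and head kidney.

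The transcript nearest to the Elastase-1 model was very abundant in both kidneys. It had 3741 FPKM in kidney (3716 to 3765) and 2631 in head kidney (2610 to 2652), and ranked as number 11 and number 34 among all transcripts of these libraries. Kidney exceeded head kidney by 1.42 times (1.41 to 1.44). Gill followed with 65.5 FPKM (62.2 to 68.9), heart with 51.1 (48.2 to 54.1), nose with 26.4 (24.2 to 28.7) and spleen with 24.8 (22.8 to 27.0). Nose and spleen did not differ beyond counting error, with a ratio of 1.06 (0.942 to 1.20). Gut had 10.8 FPKM (9.44 to 12.2), eye 10.003 (8.77 to 11.4) and stomach 9.41 (8.21 to 10.7). Brain had 4.12 FPKM, liver 3.87, muscle 3.24 and testis 0.529.

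Set against gut, this transcript was 348 times as high in kidney (306 to 396) and 244 times as high in head kidney (215 to 279). The ratio was 2.31 in spleen (1.98 to 2.70), a log2 ratio of 1.21 that equals the median log2 ratio of all transcripts tested in that pair of libraries, 1.21. Liver was 0.360 times gut (0.282 to 0.455) in FPKM and 1.10 times gut with size factors, so that the order of liver and gut depends on the scaling. Stomach was 0.874 times gut (0.725 to 1.05), with values of 0.589 in TPM and 1.61 with size factors. A larger ratio of kidney to gut was held by 46 of 21320 transcripts, and a larger ratio of head kidney to gut by 24 of 20822. For spleen the number was 11157 of 22247, for liver 6453 of 18936 and for stomach 4374 of 19179. Since the transcript was picked by its profile, nothing is read from these ranks.

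**Figure D4:**
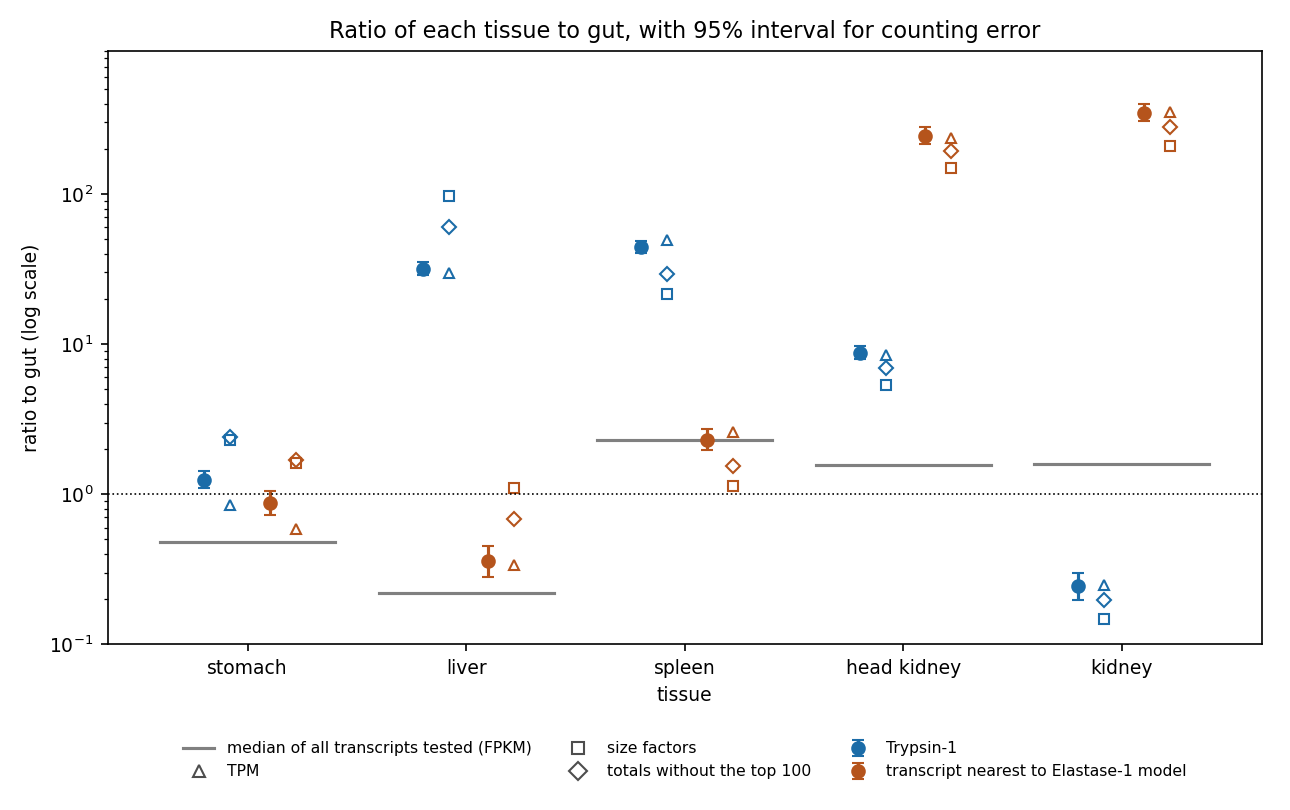
Ratio to gut (log axis) of stomach, liver, spleen, head kidney and kidney for Trypsin-1 and for the transcript nearest to the Elastase-1 model, each from 1 library per tissue. Filled points with 95% intervals are FPKM ratios, open symbols are other scalings, and grey bars are the median of all transcripts tested. Trypsin-1 lies at 44.1 in spleen and 0.244 in kidney, the other transcript at 2.31 in spleen and 348 in kidney.

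The levels of Trypsin-1 and this transcript differed by tissue. Their profiles had an r of 0.227 over the 13 tissues. In liver, the level of Trypsin-1 per length was 215 times as high (177 to 264), and in spleen 46.5 times (42.6 to 50.7). In kidney, the transcript nearest to the Elastase-1 model was 586 times as high as Trypsin-1 (487 to 711), and in head kidney 11.5 times (11.1 to 11.9). Head kidney was the only one of the 6 tissues in which both exceeded 100 FPKM. In gut and stomach Trypsin-1 was the higher, by 2.43 times (2.07 to 2.85) and 3.48 times (2.97 to 4.08). The transcript nearest to the Elastase-1 model had an r of 0.563 with the 441-base and of 0.370 with the 381-base Elastase-1 transcript.

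Of 31505 transcripts screened, 7 had an r of at least 0.95 with the transcript nearest to the Elastase-1 model, 5 highest in head kidney and 2 in kidney. The one with a name was Protein FAM26E (GATF01030920, r 0.972), of a family of channel-like membrane proteins, with 47.3 FPKM in head kidney and 31.1 in kidney. The nearest without a name were GATF01015638, with 1731 FPKM in head kidney and 1186 in kidney, and GATF01027950, with 3857 FPKM in kidney and 1943 in head kidney. The 8 transcripts together made up 0.922% of the fragments in head kidney and 0.878% in kidney, against 0.00434% in gut and 0.00134% in liver. The 7 were chosen for likeness, so that this contrast was fixed by the choice. Whether the 8 come from separate genes is not known here. Their ratios of kidney to head kidney ran from 0.362 to 1.99, so that neither kidney was the higher in all of them. The next named transcripts, Transcription factor E2F7 (r 0.720), a repressor of the cell cycle, and Potassium voltage-gated channel subfamily KQT member 5 (r 0.719), had at most 1.82 and 13.4 FPKM.

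For the longer Elastase-1 model, of 553 bases, the nearest profile was that of GATF01030619 (679 bases), at a distance of 0.0194. That transcript had 70.6 FPKM in kidney (66.2 to 75.2), 60.6 in head kidney (56.4 to 65.0), 1.22 in spleen and 0.234 in gut, the last from 3 fragments. Its pattern, like that of the other, was fixed by the choice. It holds fewer fragments than the model, which at that distance also had most of its own in kidney and head kidney. In the RefSeq annotation of a pike genome (assembly fEsoLuc1.pri, not the build of the study), 2 genes carry the name Elastase-1, LOC105028862 and LOC105028863, with 0 genes between them, and no gene is named Trypsin-1. Which of the transcripts belongs to which gene is not known here.

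By the study's rule for specialized genes, a level more than 3 SD above the mean of the 13 tissues, 1 of the 4 members found was called, the 239-base Elastase-1 transcript with a score of 3.23 in head kidney that rests on 4 fragments. Of all transcripts, 37.4% were called. Trypsin-1 reached 2.62 in spleen, the 381-base transcript 2.37 in stomach and the 441-base transcript 2.02 in gut. A transcript that is high in several tissues scores lower by this rule, so that a score below 3 does not mean an even level. The transcript nearest to the Elastase-1 model reached 2.67 in kidney, and 3.17 when kidney and head kidney were averaged into 1 tissue. With that averaging, 30.4% of all transcripts were called. Kidney and head kidney were already known as its highest tissues. Joining them raises the score by itself, so that nothing is read from the value of 3.17.

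Markers of neighbouring cell types were looked up in lists of names, and few of their rows could be found among the deposited transcripts. Of the exocrine pancreas list, 1 of 5 rows was found, Anionic trypsin-1. Of the islet list, 2 of 5 were found. Pancreas/duodenum homeobox protein 1, a transcription factor of pancreas, duodenum and islets, had 3.89 FPKM in stomach, 0.742 in heart and 0.083 in gut, and no fragment in liver, spleen, head kidney or kidney. Insulinoma-associated protein 1, a factor of neuroendocrine cells, was highest in brain at 6.03 FPKM and had 2.08 in head kidney and 0 in spleen. The Glucagon-2 model of the same list could not be paired. The transcript nearest to it in profile (GATF01031304, 655 bases, distance 0.0328, picked by that profile) carries no name and had 40.1 FPKM in spleen, 30.2 in liver, 21.5 in head kidney, 13.7 in eye, 9.79 in gut, 2.08 in stomach and 0.232 in kidney. Of these islet transcripts, only this one, whose name is not settled, was above 10 FPKM in the tissues with most Trypsin-1.

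Of the liver list, 2 of 9 rows were found. Hemopexin had 5920 FPKM in liver, 67.3 in head kidney, 27.6 in kidney, 21.6 in stomach, 20.2 in spleen and 6.31 in gut. Trypsin-1 had 1154 FPKM in the spleen library, and whether tissue beside the spleen contributed to that level was not tested. Fibrinogen-like protein 1, in mammals secreted by the liver, was highest in nose at 3.90 FPKM and had no fragment in liver. Acidic mammalian chitinase, the only one of 3 stomach rows found and in mammals an enzyme of gastric chief cells, had 172 FPKM in stomach and no fragment in gut, liver, spleen, head kidney or kidney.

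Of the granulocyte and phagocyte list, 6 of 18 rows were found. Their summed level was 236 FPKM in gut, 81.7 in head kidney, 47.8 in kidney, 47.6 in stomach, 42.0 in spleen and 15.1 in liver. In each of these tissues most of the sum came from Leukocyte elastase inhibitor and Matrix metalloproteinase-19. Whether the sum follows granulocytes or phagocytes was not tested. Leukocyte elastase inhibitor, a serpin that blocks granulocyte proteases, made up most of the sum in gut, with 224 FPKM there, 48.0 in head kidney and 26.5 in kidney. Matrix metalloproteinase-19, an extracellular protease, was found as a pair of transcripts, both highest in head kidney in FPKM. The more abundant had 32.0 FPKM there (1625 fragments), 30.6 in stomach (1637 fragments) and 18.5 in kidney. Size factors lower head kidney and raise stomach relative to gut, so that the order of these 2 tissues depends on the scaling. Eosinophil peroxidase had 3 fragments in all and none in either kidney. Alveolar macrophage chemotactic factor 2, a chemokine, was highest in kidney at 2.24 FPKM. Granulin-1, a growth factor precursor, was highest in testis at 3.44 FPKM and had 2.98 in gut. It had 0.371 FPKM in kidney, from 3 fragments, and none in head kidney. The part of such cells in the levels of the transcript nearest to the Elastase-1 model was not tested.

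Other serine proteases of the same fold were represented by 1 of 8 rows, Kallikrein-6, with 31 fragments in all and 0.712 FPKM in gut, 0.654 in testis and none in liver, head kidney or kidney. None of the 4 hemoglobin rows and none of the 4 gut epithelium rows were found, so that red blood cells and enterocytes could not be followed here.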

How the data were processed

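Paired-end reads of 13 tissue libraries were trimmed with Trimmomatic and assembled with Trinity, and the reads of each tissue were mapped to the curated transcripts. The authors deposited, per transcript, the raw fragment count and the FPKM. Which program mapped the reads is not stated in the methods or labels. Transcript lengths were calculated from fragments, FPKM and library totals.

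Names were taken from the study's annotation tables, and no FPKM given here was. Of 1999 Trinity rows, 1920 matched exactly 1 transcript on fragments and FPKM in every library. MAKER2 models were paired if all fragment numbers lay within 1 fragment or 0.1% with lengths within 20% and at least 1000 fragments, or were equal with lengths within 5% and at least 20 fragments (121 of 1999). A rule added after seeing the data paired 5 more, Trypsin-1 and Anionic trypsin-1 among them. It asked for equal length (within 1 base) and a profile distance, the share of fragments placed in other tissues, of at most 0.01. For Trypsin-1 the distance was 0.0031, with 0.0118 for the second nearest. In all, 926 transcripts had a protein name.

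With 1 library per tissue no test was made. Intervals are exact Poisson 95% intervals for levels and exact conditional binomial (Clopper-Pearson) intervals for ratios. A floor of 3 fragments was used at 0. Shares of all transcripts past 10-fold used those with at least 10 fragments in either library. Likeness is Pearson's r of log2(FPKM + 0.1) among transcripts with at least 10 fragments in a library. The named genes were drawn from the members found, the list rows found, and the 5 named and at most 2 unnamed transcripts most like a member. Not all of these alike transcripts are given. Chosen after their values were seen were the nearest profiles of the unpaired Elastase-1, Glucagon-2 and Trypsin models. The unpaired Trypsin-1 model had fewer than 100 fragments over all libraries, too few for that search. The members and lists were chosen with earlier results of these data known. Alternatives were TPM, median-of-ratios size factors, totals without the 100 most abundant transcripts, a floor of 1 fragment, other fold and filter settings, other scores, log2(FPKM + 1), Spearman's rho and other pairing tolerances. The calculations, tested on simulated data, ran under Python 3.11.15 with scipy 1.17.1, numpy 2.4.6 and pandas 2.3.3, and plots were drawn in matplotlib 3.10.9.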

Additional observations from a re-analysis of the deposited data

How the results depend on the processing

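Scaling moved most ratios. Relative to FPKM, size factors multiplied every ratio to gut by 0.612 in head kidney, 0.603 in kidney, 0.491 in spleen, 3.07 in liver and 1.84 in stomach. Trypsin-1 turned in stomach against gut under TPM (0.843) and in spleen against liver under size factors (0.222) and trimmed totals (0.486). The transcript nearest to the Elastase-1 model turned in liver against gut under size factors (1.10). With size factors, the ratios to gut of Trypsin-1 were 5.36 in head kidney, 0.147 in kidney, 21.7 in spleen, 97.6 in liver and 2.31 in stomach. Those of the transcript nearest to the Elastase-1 model were 149.6 in head kidney, 209 in kidney, 1.13 in spleen and 1.61 in stomach. With totals lacking the 100 most abundant transcripts, Trypsin-1 was at 6.92 in head kidney, 0.196 in kidney, 29.4 in spleen, 60.4 in liver and 2.42 in stomach. The other transcript was then at 193, 279, 1.54, 0.683 and 1.69 in head kidney, kidney, spleen, liver and stomach. TPM gave 49.6 for Trypsin-1 in spleen against gut, 1.66 in spleen against liver, and 0.589 for the other transcript in stomach against gut. Kidney against head kidney of that transcript was 1.495 (TPM), 1.40 (size factors) and 1.45 (trimmed totals). A fold of 5 in place of 10 called 2897 transcripts in place of 1264 in head kidney, 3352 in place of 1747 in kidney, 4873 in place of 2286 in spleen and 570 in place of 284 in stomach. With a floor of 1 fragment these counts were 1583, 2201, 2938 and 376, and the ratio of gut to liver of the 381-base transcript was at least 60.3 in place of at least 20.1. Counts of like profiles were 15 and 12 for Trypsin-1 with log2(FPKM + 1) and Spearman's rho, against 14. Models paired numbered 94 with equality, 146 with a tolerance of 5 fragments or 2%, and 126 with the added rule, against 121. No paired analysis was possible because each tissue has 1 library of the same fish. With 5 to 164 fragments, the Elastase-1 transcripts of the Trinity set give ratios with wide intervals.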
